A study of Mus musculus with 74 samples.

Results

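Spi1 encodes PU.1, an ETS-family transcription factor of myeloid and B cells. The interactions described here are all those that the 3 deposited promoter capture Hi-C lists hold for the Spi1 locus on mouse chromosome 2 (build mm10). RefSeq (GRCm38.p6) places Spi1 (gene 20375) at chr2:91082374-91115759. Members were chosen by position and not by their values: every interaction of the captured HindIII fragment chr2:91080805-91084236, which holds the annotated gene start, every interaction of the captured fragment chr2:91108722-91123643, which holds the annotated gene end, and every interaction of another captured fragment whose far end fell in chr2:91050000-91130000. These came to 34 of 130734 listed interactions in Ery shStag2, 63 of 123042 in Ery Luc and 57 of 112183 in HPC, which is 154 of 365959 in all. The 2 Spi1 fragments were 2 of 21022 captured fragments that appeared in any list.

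All cells were HPC-7, a mouse line of blood stem and progenitor type. Ery shStag2 cells held an inducible hairpin that targets Stag2, which encodes a subunit of cohesin, were induced with doxycycline for 72 h, and were grown with erythropoietin (EPO) at 4 U/l and stem cell factor (SCF) at 20 ng/ul. Ery Luc cells carried a hairpin against luciferase and were grown in the same medium, with doxycycline for 72 h in one library and 73 h in the other, per the labels. HPC cells were not transduced, received no doxycycline, and were grown with SCF at 100 ng/ul. HPC and Ery Luc therefore differ in stage, medium, doxycycline and transduction, and these cannot be told apart. The labels of the capture libraries do not say how long EPO was given. Each list pools 2 libraries, so a condition has 1 value, no replicate error and no p-value, and the differences below compare lists. RNA counts of Spi1 were not analysed, because 0 of the 55943 transcript identifiers they use could be paired with a gene symbol here. For the same reason the cell stage was not checked against marker genes.

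In blood formation PU.1 drives granulocyte, macrophage and B cell programmes, and its level must fall for erythroid maturation. PU.1 and the erythroid factor GATA1 bind each other and restrain each other's target genes. Spi1 is controlled from its promoter and from an upstream regulatory element that loops to that promoter in myeloid cells. Cohesin extrudes DNA loops and is halted at sites bound by CTCF, and Stag2 is one of its alternative SA subunits. The gene table gives neither the regulatory element nor the start of each transcript, so contacts are described by fragment.

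The gene end fragment also holds the annotated start of Mybpc3, a cardiac myosin-binding protein gene, so its contacts cannot be given to Spi1 alone. Only 3 of its contacts were in all 3 lists, and each joined it to a fragment that holds the start or end of another gene. These were the fragments of Slc39a13 (a zinc transporter), of Madd with Nr1h3 (a MAP kinase adaptor and the liver X receptor alpha) and of Nr1h3 with Acp2 (a lysosomal acid phosphatase). The bases just before Mybpc3 are printed here because they are promoter sequence on the gene end fragment itself. They come from the RefSeq promoter table of GRCm38.p6, 5′ to 3′ on the gene's own strand, and end at the base before the annotated gene. Capitals mark GGGCGG, the GC box bound by SP-family factors, on either strand.
Mybpc3, chr2:91117894-91118113, plus strand: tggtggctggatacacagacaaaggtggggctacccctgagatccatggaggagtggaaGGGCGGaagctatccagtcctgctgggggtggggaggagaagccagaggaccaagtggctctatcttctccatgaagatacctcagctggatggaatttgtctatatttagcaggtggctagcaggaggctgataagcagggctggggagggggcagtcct

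This window of 220 bases held 1 GC box. The ETS-type promoter motif CCGGAA and the PU.1 core GAGGAA were not in it on either strand. Of 32851 promoter windows cut to the same length, 28.5% held the GC box, 9.47% the ETS motif and 20.4% the PU.1 core. Its GC content was 56.4%. The table held promoters for 6 of 9 genes of the locus that were looked up. Apart from that of Mybpc3, their windows lay within annotated genes and are not printed. Spi1, Ddb2 and Psmc3 had no entry, so no Spi1 promoter was searched for these motifs.

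The gene end fragment had 2 listed interactions in Ery shStag2, 20 in Ery Luc and 19 in HPC. The exact 95% Poisson intervals, which cover counting error only, were 0.242 to 7.22 in Ery shStag2, 12.2 to 30.9 in Ery Luc and 11.4 to 29.7 in HPC. The low count was thus in the Stag2 hairpin list alone, and the control after EPO stood beside the untransduced progenitors. Per 100000 listed interactions the values were 1.53 in Ery shStag2, 16.3 in Ery Luc and 16.9 in HPC, so the longer Ery shStag2 list did not carry more of them. Of all 20652 captured fragments listed in either Ery list, 23.4% had at least 2 fewer interactions in Ery shStag2 than in Ery Luc and 30.1% at least 2 more, so a lower count by itself is common. Larger gaps were counted among fragments with many interactions in Ery Luc. Of 1272 captured fragments with 20 or more interactions in Ery Luc, 111 (8.73%) had at most 50% as many in Ery shStag2. At most 10% as many were held by 5 (0.393%), this one included. The floor of 20 and the cut of 10% equal this fragment's own count and ratio. Choosing fragments for a high count in Ery Luc favours a fall, and the reverse choice was not counted. These shares therefore do not measure how rare such a gap is.

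No pair of fragments was listed in both directions in any list. A pair of 2 captured fragments, 18.5% of the Ery shStag2, 19.5% of the Ery Luc and 21.4% of the HPC list, stood under 1 of its fragments only, and under the one of higher position in 50.7% to 50.9% of cases. Counts from the capture column alone can therefore miss a contact that is listed under its partner. With the fragment counted in either column, the gene end fragment had 5 interactions in Ery shStag2, 23 in Ery Luc and 22 in HPC. The smaller number in Ery shStag2 remained, at 0.217 times that of Ery Luc. Ery shStag2 held 17.9% of the interactions of both Ery lists (exact binomial interval 6.06 to 36.9). Among 1769 captured fragments with 20 or more interactions in Ery Luc counted this way, 5.71% had at most 50% as many in Ery shStag2. A ratio at or under 0.217 was held by 12 (0.678%), this one included. That cut is this fragment's own ratio and the set was again chosen by Ery Luc, so the same limit holds.

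**Figure D1:**
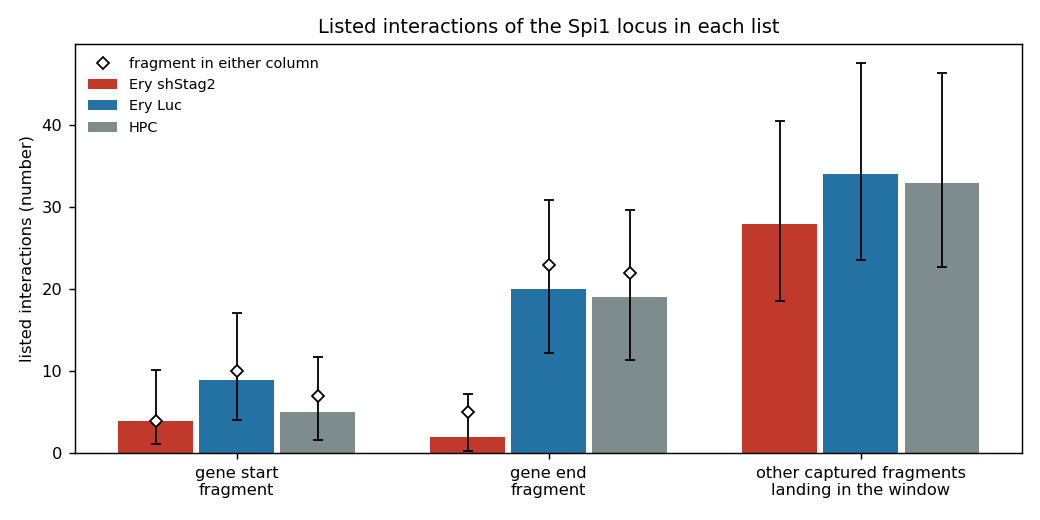
Number of listed interactions of the gene start fragment, the gene end fragment and other captured fragments landing in the window, for Ery shStag2, Ery Luc and HPC. Bars count the capture column with exact 95% Poisson intervals and diamonds count the fragment in either column; the gene end fragment stands at 2 in Ery shStag2, 20 in Ery Luc and 19 in HPC, while landing contacts stand at 28 in Ery shStag2, 34 in Ery Luc and 33 in HPC.

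The contact of the gene end fragment with the Slc39a13 fragment, 42.8 kb upstream, was its highest-scoring one in each list. It scored 8.8 in Ery shStag2, 13.04 in Ery Luc and 14.38 in HPC. The score is the authors' and ranks contacts within a list only. In its own list this stood at the 81.7 percentile in Ery shStag2, 94.9 in Ery Luc and 95.5 in HPC. In all 3 lists it was listed under the Slc39a13 fragment, so a count of the gene end fragment's own captures leaves it out. In Ery shStag2, 3 of the 5 contacts were listed that way. All 5 had a captured fragment at the other end, against 8 of 23 in Ery Luc and 8 of 22 in HPC. The contact with Nr1h3 and Acp2, 87.2 kb downstream, stood at the 59.6 percentile in Ery shStag2, 88 in Ery Luc and 92.1 in HPC. The contact with Madd and Nr1h3, 66.8 kb downstream, stood at the 1.91 percentile in Ery shStag2, 69.5 in Ery Luc and 43.1 in HPC. In Ery shStag2 its score of 5.03 lay just over 5, the lowest value that the lists hold, and it was listed there under the Madd fragment. It was thus a kept contact that the capture column alone would have counted as lost.

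Of the 11 contacts of the gene end fragment that were in both Ery Luc and HPC, 3 were also in Ery shStag2. Across the genome, 71.8% of 37927 pairs within 250 kb that were in both Ery Luc and HPC were in Ery shStag2 as well. The share was 86.5% for pairs scoring 7 or more in Ery Luc and 56% for those under 7, against 3 of 6 and 0 of 5 at the gene end fragment. Ery shStag2 listed 5 contacts of this fragment in all, so at most 5 of the 11 could be kept. A share under 71.8% was thus fixed by the low count and is no separate result. The split by score falls under the same limit. The strongest of the 8 missing contacts reached the fragment over an end of Ddb2 (a DNA damage-binding protein), 121 kb downstream. It scored 10.57 in Ery Luc, the 89.9 percentile, and 8.54 in HPC, the 76.3 percentile. The next 2 reached a fragment inside Ddb2 at 115 kb (8.6 in Ery Luc and 7.91 in HPC) and the fragment of Pacsin3, an endocytic adaptor gene, at 141 kb (7.02 in Ery Luc and 10.33 in HPC). The other 5 reached Psmc3, Slc39a13, Mybpc3, Nr1h3 and Acp2 and scored between 5 and 6.12 in Ery Luc.

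The contacts of the gene end fragment lay mostly downstream. There were 3 downstream and 2 upstream in Ery shStag2, 16 downstream and 6 upstream in Ery Luc with 1 more on chromosome 5, and 17 downstream and 5 upstream in HPC. The median distance within the chromosome was 87.2 kb in Ery shStag2, 84.8 kb in Ery Luc and 66.5 kb in HPC. Contacts over 250 kb numbered 1 in Ery shStag2, 4 in Ery Luc and 0 in HPC, and those of Ery Luc reached fragments inside Lrp4 and Ckap5. Of the contacts, 3 of 5 in Ery shStag2, 15 of 23 in Ery Luc and 15 of 22 in HPC scored under 7. Scores of 7 or more were held by 2 contacts in Ery shStag2, 8 in Ery Luc and 7 in HPC, and scores of 10 or more by 0 in Ery shStag2, 3 in Ery Luc and 3 in HPC.

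Which neighbouring fragments were met also varied between Ery Luc and HPC, although the totals were alike. Of the 22 HPC contacts, 11 were in Ery Luc at the identical fragment (50%, exact interval 28.2 to 71.8), where all pairs of HPC gave 46.2%. With the far end allowed to lie within 10 kb, 21 of 22 were matched. Likewise 3 of 23 Ery Luc contacts were in Ery shStag2 at the identical fragment (13%, interval 2.78 to 33.6), and 8 of 23 had a match within 10 kb. The share of all pairs that match within 10 kb was not counted. The matches within 10 kb therefore have no background to be read against. All pairs of Ery Luc gave 45.2% at the identical fragment. With 5 contacts in Ery shStag2, at most 5 of the 23 could be shared, so a share under 45.2% followed from the low count. The 3 shared contacts made up 60% of the 5 in Ery shStag2 (interval 14.7 to 94.7). The other 2 of Ery shStag2, with C1qtnf4 at 7.81 and Lrp4 at 5.38, were in neither other list.

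**Figure D2:**
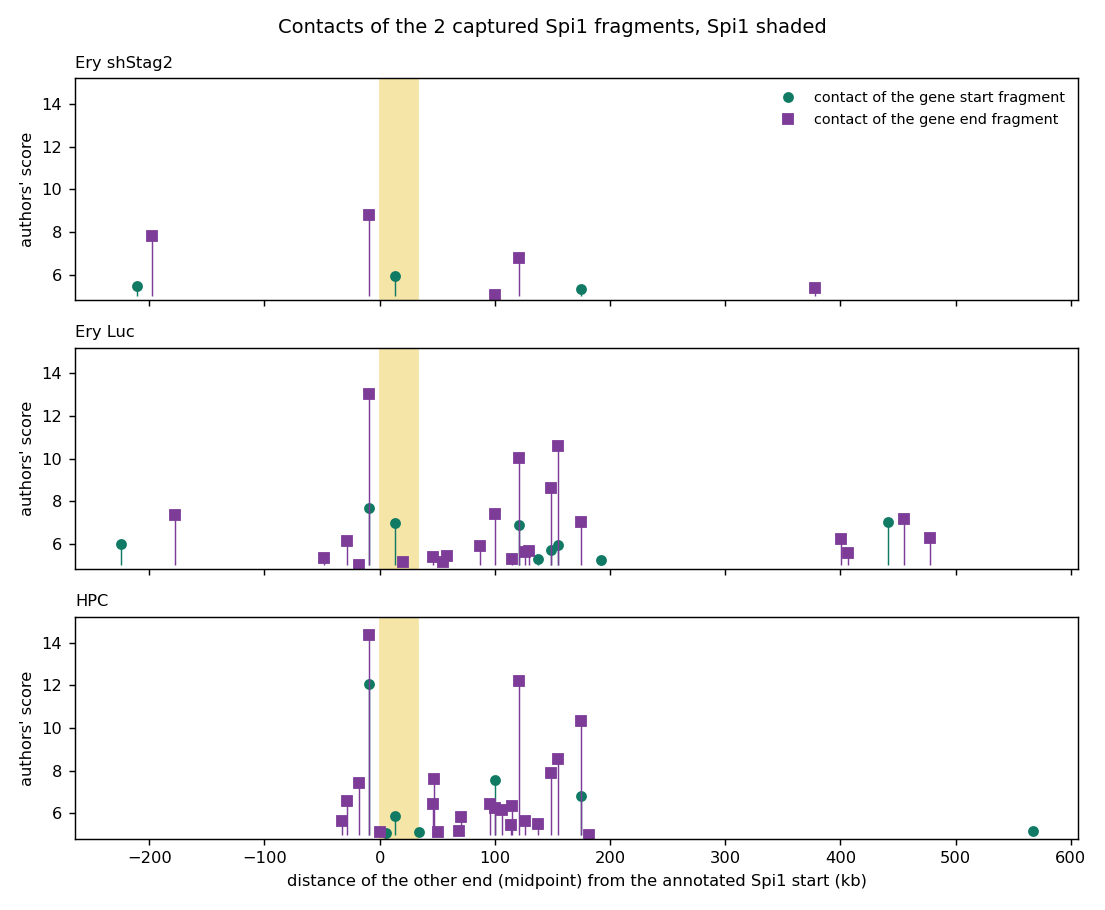
Authors' score of each contact within chromosome 2 against the distance of its far end from the annotated Spi1 start (kb), in Ery shStag2, Ery Luc and HPC, for the gene start fragment (circles) and the gene end fragment (squares), counted in either column; Spi1 is shaded, scores compare within a panel, and the contacts of the gene start fragment 55.9 and 62.7 Mb away and that of the gene end fragment with chromosome 5 are not drawn. The stretch from about Madd to Pacsin3, right of the gene, holds many contacts in Ery Luc and HPC and few in Ery shStag2.

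The gene start fragment had fewer contacts than the gene end fragment in Ery Luc and HPC. It had 4 listed interactions in Ery shStag2, 9 in Ery Luc and 5 in HPC, and counted in either column it had 4 in Ery shStag2, 10 in Ery Luc and 7 in HPC. The Poisson intervals of the capture counts, 1.09 to 10.2 in Ery shStag2, 4.12 to 17.1 in Ery Luc and 1.62 to 11.7 in HPC, overlap widely. Of the interactions of both Ery lists 30.8% were in Ery shStag2 (exact binomial interval 9.09 to 61.4), so the difference was not detectable at these counts. Of 19363 captured fragments listed in Ery Luc or HPC, 37.3% had at least 2 more interactions in Ery Luc, as this one did, and 22% had at least 2 fewer.

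A single contact of the gene start fragment was in all 3 lists. It joined the fragment to chr2:91090604-91101360, which lies wholly inside Spi1, 13.5 kb downstream, and it scored 5.92 in Ery shStag2, 6.98 in Ery Luc and 5.87 in HPC. Its percentile was 38.8 in Ery shStag2, 63.3 in Ery Luc and 33.1 in HPC. The contact within the gene was thus listed with the Stag2 hairpin, with the luciferase hairpin and without a hairpin. A shorter one, 5.27 kb downstream and also inside Spi1, was listed in HPC only, at 5.06. No score of 7 or more was held by a contact of this fragment in Ery shStag2, against 2 in Ery Luc and 2 in HPC. The strongest were with Slc39a13, 9.09 kb upstream, at 7.69 in Ery Luc and 12.07 in HPC. That contact was not in the Ery shStag2 list.

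The remaining contacts of the gene start fragment differed between the lists. With Pacsin3, at 174 kb, it was listed in Ery shStag2 at 5.34 and in HPC at 6.82, and not in Ery Luc. With Nr1h3 and Acp2 at 121 kb and the Ddb2 fragment at 154 kb it was listed in Ery Luc only, at 6.9 and 5.93. With Madd and Nr1h3 it was listed in HPC only, at 7.55. The contact between the gene start and gene end fragments themselves, 33.7 kb apart, was listed in HPC only, at 5.14. A contact 55.9 Mb away, with a fragment inside Rab14, was listed in Ery shStag2 only, at 5.9, and 1 that lay 62.7 Mb away in Ery Luc only, at 6.46.

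Other captured fragments made contacts that landed in the window in similar numbers in the 3 lists. They made 28 interactions in Ery shStag2, 34 in Ery Luc and 33 in HPC, from 11 captured fragments in Ery shStag2, 14 in Ery Luc and 12 in HPC. The Poisson intervals of 18.6 to 40.5 in Ery shStag2, 23.5 to 47.5 in Ery Luc and 22.7 to 46.3 in HPC overlap widely. Most landed on the Psmc3 and Slc39a13 side, before the fragment that precedes the Spi1 start, with 24 in Ery shStag2, 26 in Ery Luc and 19 in HPC. Psmc3 encodes a proteasome ATPase. On the side of Spi1 and Mybpc3 there were 4 in Ery shStag2, 8 in Ery Luc and 14 in HPC. The landing contacts on that side were thus fewest in Ery shStag2, next in Ery Luc and most in HPC, but the counts are small. On the fragments that overlap Spi1 itself the lists were closer, with 4 in Ery shStag2, 6 in Ery Luc and 8 in HPC.

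The difference on the Spi1 side between Ery Luc and HPC came from captured fragments that lie after the gene. They made 1 contact onto the Spi1 side in Ery shStag2, 2 in Ery Luc and 9 in HPC. Those in HPC landed more often on fragments inside Mybpc3 than on fragments that overlap Spi1. Captured fragments before the gene made 3 in Ery shStag2, 6 in Ery Luc and 5 in HPC. Onto the Psmc3 and Slc39a13 side the fragments after the gene made 4 in Ery shStag2, 8 in Ery Luc and 4 in HPC. Onto the gene end fragment itself 3 contacts landed in each list, and onto the gene start fragment 0 in Ery shStag2, 1 in Ery Luc and 1 in HPC. These landing contacts on the Spi1 fragments are the ones that the either-column counts above add, apart from the HPC contact between the fragments.

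The share of landing pairs common to 2 lists differed between the sides of the window. Over the whole window, of the 34 in Ery Luc, 16 (47.1%) were in Ery shStag2, or 57.1% of its 28. Of the 33 in HPC, 15 (45.5%) were in Ery Luc, or 44.1% of its 34. Over all pairs, 45.2% of Ery Luc were in Ery shStag2, 46.2% of HPC in Ery Luc and 42.2% of Ery Luc in HPC. The matching shares of the whole window were close to these. On the Spi1 side, 2 of the 8 Ery Luc pairs (25%) were in Ery shStag2 and 3 of the 14 HPC pairs (21.4%) were in Ery Luc. On the Psmc3 and Slc39a13 side, 14 of the 26 Ery Luc pairs (53.8%) were in Ery shStag2 and 12 of the 19 HPC pairs (63.2%) were in Ery Luc. The difference between the sides was not tested, and the counts on the Spi1 side are small. In all 3 lists there were 9, and 8 of them landed before Spi1 and came from C1qtnf4, Ndufs3 with Kbtbd4, Ptpmt1 and Celf1, genes that lie upstream of Psmc3. For example, the fragment of Ndufs3, a subunit of respiratory complex I, met chr2:91047755-91052041 at 14.44 in Ery shStag2, 9.84 in Ery Luc and 8.23 in HPC. The ninth was the contact of Slc39a13 with the gene end fragment.

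**Figure D3:**
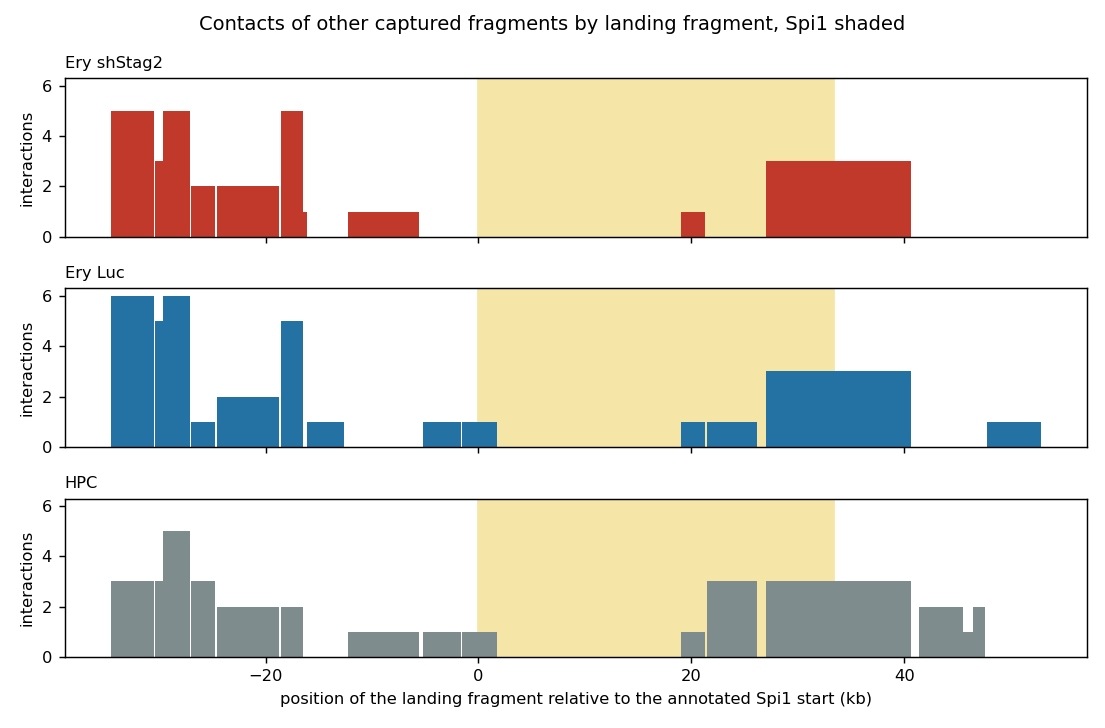
Number of interactions of other captured fragments by the fragment they landed on (kb from the annotated Spi1 start, bar width equal to fragment length), in Ery shStag2, Ery Luc and HPC, with Spi1 shaded. The left side, over Psmc3 and Slc39a13, holds 24 interactions in Ery shStag2, 26 in Ery Luc and 19 in HPC, and the right side, over Spi1 and Mybpc3, holds 4 in Ery shStag2, 8 in Ery Luc and 14 in HPC.

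The captured fragments around Spi1 give the counts against which its own can be read. Within 500 kb of Spi1 there were 21 other captured fragments. Counted in either column, 10 of them had at least 2 fewer interactions in Ery shStag2 than in Ery Luc and 6 had at least 2 more, where 24.6% and 31.2% of 20798 captured fragments did so. Their counts summed to 313 in Ery shStag2 and 340 in Ery Luc. The ratio of Ery shStag2 to Ery Luc was lowest at the gene end fragment (0.217) and next lowest at the gene start fragment (0.4) among all 23. Celf1, an RNA-binding protein gene, followed at 0.417, with 5 in Ery shStag2 and 12 in Ery Luc, and Rapsn, a synapse gene, at 0.429, with 3 in Ery shStag2 and 7 in Ery Luc. Psmc3 had 29 in Ery shStag2 and 46 in Ery Luc, the next largest difference in number. The nearest captured fragments on either side were those of Slc39a13, with 13 in Ery shStag2 and 17 in Ery Luc, and of Madd, with 8 in Ery shStag2 and 10 in Ery Luc.

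Local pairs were counted apart from the captured fragments. Pairs with both ends within 500 kb of Spi1 and without a Spi1 fragment numbered 190 in Ery shStag2 and 213 in Ery Luc, so that Ery shStag2 held 47.1% of them (exact binomial interval 42.2 to 52.1). Local pairs with a Spi1 fragment numbered 8 in Ery shStag2 and 31 in Ery Luc, and Ery shStag2 held 20.5% (interval 9.3 to 36.5). The intervals do not overlap, but they cover counting error only, and neighbouring fragments are not independent. Pairs that spanned Spi1, with an end on each side, numbered 40 in Ery shStag2, 46 in Ery Luc and 27 in HPC. Pairs wholly before Spi1 numbered 101 in Ery shStag2, 110 in Ery Luc and 94 in HPC, and pairs wholly after it 48 in Ery shStag2, 55 in Ery Luc and 104 in HPC.

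Between Ery Luc and HPC the counts after the gene differed more than those at the gene. Local pairs with a Spi1 fragment numbered 31 in Ery Luc and 27 in HPC. Of the captured fragments after the gene, 5 had at least 6 fewer interactions in Ery Luc, with 23 in Ery Luc against 30 in HPC at Nr1h3 and Acp2, and 10 in Ery Luc against 16 in HPC at Ddb2. The others were Pacsin3, with 14 in Ery Luc and 22 in HPC, Pacsin3 with Arfgap2, with 6 in Ery Luc and 13 in HPC, and Lrp4, with 19 in Ery Luc and 33 in HPC. Other fragments had more in Ery Luc. Before the gene, Ptprj had 32 in Ery Luc and 14 in HPC, and Psmc3 had 46 in Ery Luc and 34 in HPC. After the gene, 1110051M20Rik had 17 in Ery Luc and 13 in HPC. Of the 21 neighbours, 8 had at least 2 fewer in Ery Luc than in HPC and 10 had at least 2 more, where 23.3% and 39.1% of 19721 captured fragments did so.

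**Figure D4:**
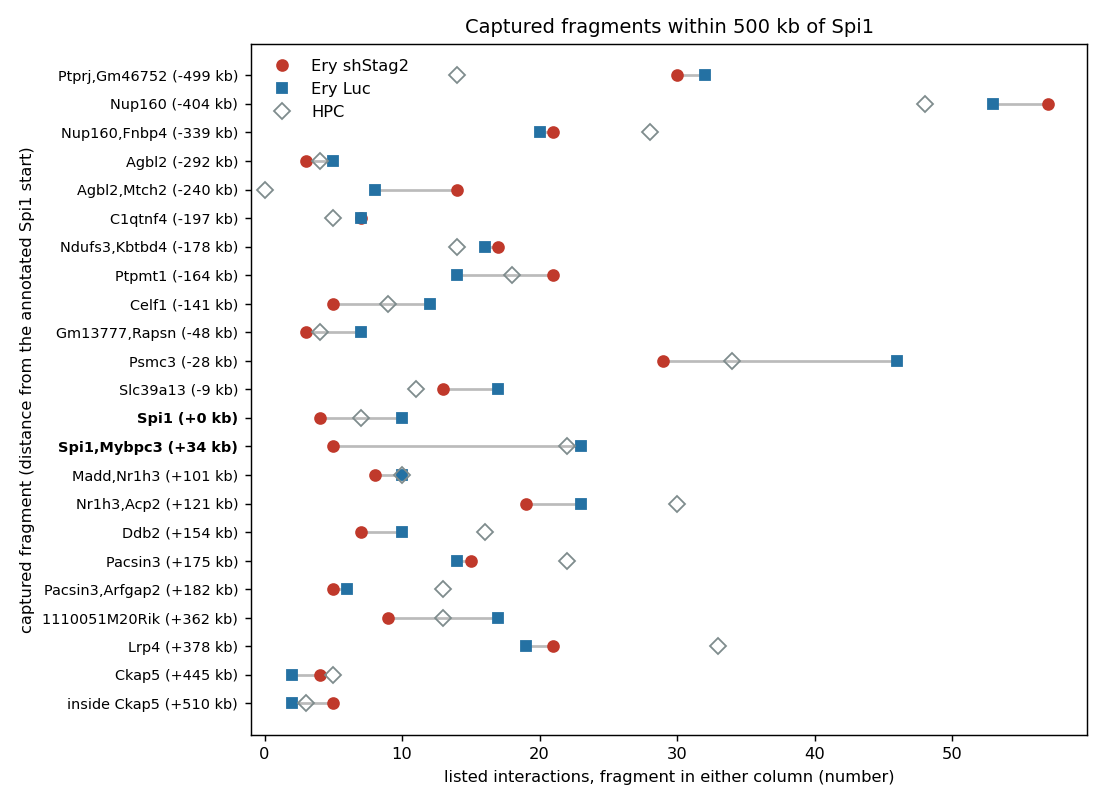
Listed interactions in either column of the 23 captured fragments within 500 kb of Spi1, ordered by position, in Ery shStag2 (circles), Ery Luc (squares) and HPC (diamonds), with a grey line from Ery shStag2 to Ery Luc. The line is longest at the gene end fragment (Spi1, Mybpc3), with 5 in Ery shStag2 and 23 in Ery Luc.

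Captured fragments elsewhere with counts most like those of the Spi1 fragments were found by the Euclidean distance of log2(interactions + 1) over the 3 lists. For the gene start fragment 4 fragments had identical counts of 4 in Ery shStag2, 9 in Ery Luc and 5 in HPC, those of Vsig8, Dnajc9 with Mrps16, Ccdc146 with Fam185a, and Pcyox1. For the gene end fragment the nearest, at 0.391, lay inside Cfap70 with 2 interactions in Ery shStag2, 17 in Ery Luc and 15 in HPC. The next were Rab2b with Tox4, with 3 in Ery shStag2, 22 in Ery Luc and 19 in HPC, and Espl1, the separase gene, with 3 in Ery shStag2, 19 in Ery Luc and 21 in HPC. Those after were a fragment inside Mtor, with 3 in Ery shStag2, 13 in Ery Luc and 16 in HPC, and Stim2, with 4 in Ery shStag2, 18 in Ery Luc and 17 in HPC. Each likeness rests on 3 values and is a description.

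Genes linked to PU.1 were taken as a list of 40 from general knowledge, of which 35 had a captured fragment. In Ery shStag2 against Ery Luc, 19 of 35 had at least 2 more interactions and 7 had at least 2 fewer, where 32% and 25.5% of 16475 genes did so. The median log2 ratio of interactions plus 1 was 0.28 over the list and 0 over all genes. Known target genes of PU.1 were mostly higher in Ery shStag2, with 13 of 16 having at least 2 more and 1 at least 2 fewer. Mpo, the myeloperoxidase gene, had 28 in Ery shStag2 and 11 in Ery Luc, on 2 captured fragments. Itgam, an integrin of myeloid cells, had 10 in Ery shStag2 and 3 in Ery Luc, and Csf3r, the receptor of granulocyte colony-stimulating factor, had 11 in Ery shStag2 and 5 in Ery Luc. Btk, a kinase of B cells, was the exception, with 5 in Ery shStag2 and 10 in Ery Luc. With scores of 7 or more 6 of 13 targets had at least 2 more and 2 at least 2 fewer. Over all captured fragments with such scores, 2929 had at least 2 more in Ery shStag2 and 2198 at least 2 fewer.

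The antagonists and partners were read in the same way. Antagonist is a label of the list, which groups Gata1 with other erythroid and blood regulators. Opposition to PU.1 was not tested for any of them. Of 7 antagonists 4 had at least 2 fewer interactions in Ery shStag2 and 1 had at least 2 more. Klf1, an erythroid activator, had 6 in Ery shStag2 and 18 in Ery Luc, and Gata2, a progenitor GATA factor, had 5 in Ery shStag2 and 11 in Ery Luc. Tal1, a blood and erythroid regulator, had 47 in Ery shStag2 and 35 in Ery Luc. With scores of 7 or more, 3 of the 7 had at least 2 fewer and 2 at least 2 more. Of 12 partners and ETS relatives 5 had at least 2 more and 2 at least 2 fewer. With scores of 7 or more, 2 of 7 had at least 2 more and 3 at least 2 fewer. These counts at scores of 7 or more are too small to give a direction. Elf1, another ETS factor, had 10 in Ery shStag2, 34 in Ery Luc and 33 in HPC. This was a low count in the Stag2 hairpin list alone, as at the gene end fragment of Spi1. Klf1, with 15 in HPC, and Gata2, with 11 in HPC, were also low in that list alone. How many of all genes are low in that list alone was not counted. At least 2 fewer in Ery shStag2 than in Ery Luc was found for 25.5% of all genes. The pattern therefore does not set these 3 genes apart. Cebpb, a partner of PU.1 in myeloid genes, had 15 in Ery shStag2 and 6 in Ery Luc.

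In Ery Luc against HPC, 14 of 34 genes of the list had at least 2 more interactions and 10 had at least 2 fewer, where 39% and 24.4% of 15756 genes did so. The median log2 ratio was 0.14 over the list and 0.30 over all genes. Targets were divided, 6 of 15 having at least 2 more and 6 at least 2 fewer. Csf1r, the receptor of macrophage colony-stimulating factor, had 2 in Ery Luc and 12 in HPC. Of 12 partners and ETS relatives, 6 had at least 2 more in Ery Luc than in HPC and 1 at least 2 fewer, against 3 and 3 of 8 with scores of 7 or more. Jun, an AP-1 subunit, had 47 in Ery Luc and 23 in HPC, and Runx1, a blood stem cell regulator, had 11 in Ery Luc and 4 in HPC. Cebpa, a partner in granulocyte genes, was the 1 with fewer, with 3 in Ery Luc and 10 in HPC. Of 7 antagonists, 2 had at least 2 more in Ery Luc and 3 at least 2 fewer, against 4 and 3 with scores of 7 or more. Over all captured fragments with such scores, 2781 had at least 2 more in Ery Luc than in HPC and 2996 at least 2 fewer. Both comparisons use the Ery Luc list, so they are not independent.

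**Figure D5:**
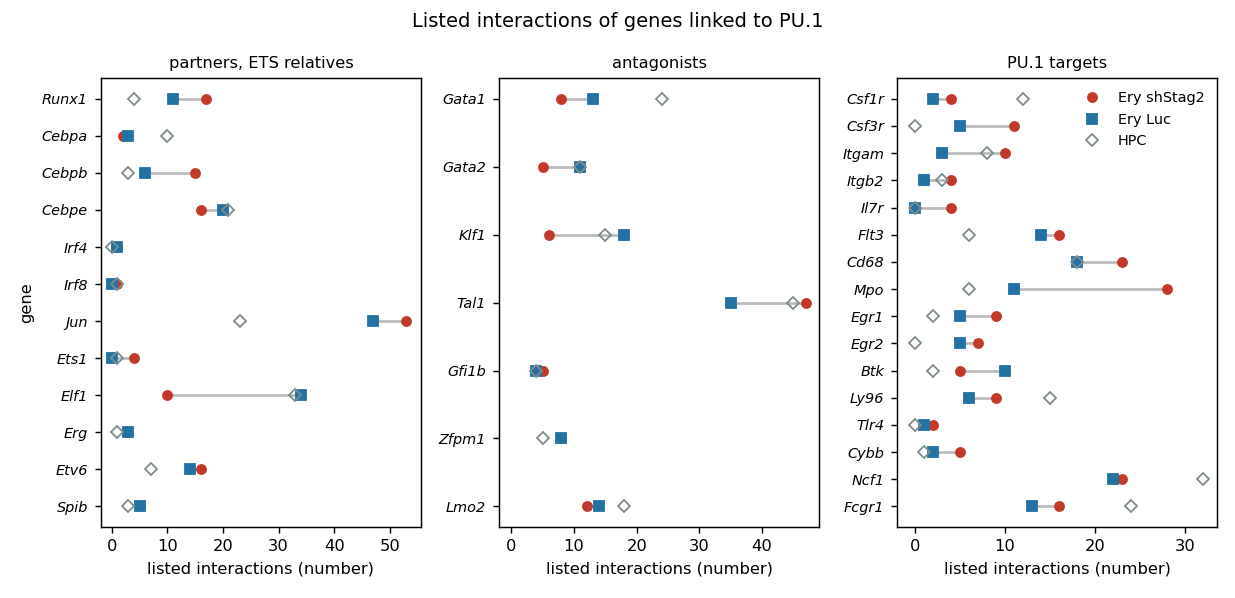
Listed interactions per gene (number, capture column) for partners and ETS relatives, antagonists and targets of PU.1, as labelled in the list, in Ery shStag2 (circles), Ery Luc (squares) and HPC (diamonds), with a grey line from Ery shStag2 to Ery Luc. Of 16 targets, 13 stand at least 2 higher in Ery shStag2 than in Ery Luc; Elf1 stands at 10 in Ery shStag2 and 34 in Ery Luc.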

How the data were processed

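Promoter capture Hi-C lists of 3 conditions were used, each pooling 2 libraries. Per the labels' protocols, formaldehyde-fixed chromatin was cut with HindIII and SureSelect baits enriched the promoter fragments. Each deposited list holds pairs of fragments with the authors' score, at least 5 in the files. How the score was computed is not given in the sources used here, and depth is unknown. Lists were read with Python 3.11.15 and pandas 2.3.3. An interaction was counted once per list, in the capture column or, where stated, in either column, and was shared when both fragments were identical. Intervals are exact 95% Poisson or binomial intervals from scipy 1.17.1 and cover counting error only. More or fewer means a difference of at least 2. Genes are protein-coding genes of GRCm38.p6 (mm10) with a start or end in the fragment. Genes were named by position within 500 kb, from the PU.1 list, or as the 5 captured fragments nearest in counts. Counting was tested on simulated data. Members, lists and comparisons were chosen with earlier results of these data known. The 15 RNA and 53 ChIP libraries were not used here.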

Additional observations from a re-analysis of the deposited data

How the results depend on the processing

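Alternatives with no test are read as the percent of interactions that fall in the first-named list. Counted in the capture column with scores of 7 or more, Ery shStag2 held 0% of the interactions in Ery shStag2 plus Ery Luc at the gene end fragment (0 against 7) and 0% at the gene start fragment (0 against 1), where all listed interactions gave 9.09% and 30.8%. With scores of 10 or more it held 0% at the gene end fragment (0 against 2). On the Spi1 side of the window alone, a choice made after seeing the data, Ery Luc held 36.4% of the landing contacts of Ery Luc plus HPC (8 against 14), where the whole window gave 50.7%. The share of Ery Luc contacts of the gene start fragment found in Ery shStag2 was 0% with scores of 7 or more, against 10% with all contacts in either column. With far ends allowed within 10 kb, 34.8% of the Ery Luc contacts of the gene end fragment were found in Ery shStag2 and 95.5% of the HPC contacts in Ery Luc, where identical fragments gave 13% and 50%. The share of all pairs within 10 kb was not counted. Over all captured fragments, Ery Luc had the larger number in 48.1% of those that differed by at least 2 when scores under 7 were left out, against 62.8% with all, so that direction turned; the cause was not tested. Of the PU.1-linked genes that differed by at least 2, 55.6% had more in Ery shStag2 than in Ery Luc with scores of 7 or more, against 73.1% with all. Over all captured fragments the same shares were 57.1% and 56.2%. With scores of 7 or more the list thus stood near the share of all fragments. The PU.1 value of 55.6% and the rest of the 56 alternatives, 48 in all, stayed within the interval of the main value. Counting the fragment in either column, also chosen after seeing the data, was among these. Some of the 48 lay on the other side of 50% from the main value. No paired analysis was possible because each list pools its 2 libraries. The alternatives for RNA (DESeq2, a filter on low counts, other sample sets, replicates left out) were not run, since no identifier was paired with Spi1. Few contacts and an unknown read depth limit every difference given here.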
